A study of Mus musculus with 8 samples.

Results

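The genes described here are 10 antioxidant and detoxification genes whose transcription is controlled by, or commonly listed with targets of, the stress-responsive factor NRF2 (gene Nfe2l2), leaving aside the glutathione transferases. They are Nqo1, Gclc, Gclm, Hmox1, Txnrd1, Srxn1, Aox1, Cat, Gpx4 and Sod2, chosen by symbol from a table of 31910 mouse genes. All 10 were present in the table and passed the filter on low counts, which left 12358 genes for testing.

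RNA was sequenced from frozen liver of mice injected with either of 2 adeno-associated viral vectors, AAV2/9-SA (4 libraries, SA 1 to SA 4) or AAV2/9-Ctrl (4 libraries, Ctrl 1 to Ctrl 4). The title of the series speaks of a protein of bacterial origin that binds acetyl-CoA carboxylase, studied in mice with steatohepatitis, and the labels do not spell out SA. Per the series' design text, each mouse received 4.8e+10 vector genomes by tail vein after 7 weeks of feeding. The study used a high-fat diet (HFD) for 24 weeks, a high-fat high-cholesterol diet (HFHC, with 0.2% cholesterol) with sugared water for 16 weeks, and normal chow, and the labels do not say which diet these 8 mice ate. Nor do they give strain, sex, age or the promoter that drives the vector. The transcript of the vector was not analysed here. The replicates are numbered in the sample titles and are not said to be separate animals, so p-values measure only the spread between these libraries.

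NRF2 is a transcription factor that the adaptor KEAP1 holds for degradation by a CUL3 ubiquitin ligase until oxidants or electrophiles modify KEAP1. NRF2 then pairs with a small MAF protein and binds antioxidant response elements, while BACH1 and BACH2 compete for the same sites. In liver it drives quinone reduction, glutathione synthesis, the thioredoxin cycle and NADPH supply. Nqo1, Gclc, Gclm, Txnrd1 and Srxn1 are its standard targets, and Hmox1 is shared with BACH1. Cat, Gpx4 and Sod2 are antioxidant enzymes also under other control.

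The core of the antioxidant response element, TGACNNNGC on either strand, was looked for in the RefSeq start-site windows (GRCm38.p6, 250 bases before to 50 bases after a start), of which 12.4% of 32851 hold it. Windows were found for 8 of the 10 genes (13 windows). Of the 13 windows 3 held a match, 1 each for Srxn1, Gclm and Txnrd1. The match of Srxn1 lies past the start. Elements farther from a start were not looked for, so a window without a match does not show that a gene lacks the element. The matches in Gclm and Txnrd1 lie 134 and 92 bases before the start, and are shown with 20 bases on either side because these are the stretches that carry the element. Capitals mark the match, which reads on the opposite strand.
Gclm, chr3:122245403-122245451, plus strand: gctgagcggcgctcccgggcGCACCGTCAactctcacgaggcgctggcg
Txnrd1, chr10:82859094-82859142, plus strand: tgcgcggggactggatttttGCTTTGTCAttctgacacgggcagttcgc
A match is a string of letters and not a measured binding site.

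The 8 libraries held 14114145 to 15922829 counts, except SA 4 with 28184001. Ctrl 4 stood apart in its share of counts from mitochondrial genes, 9.23% against 3.55% to 4.87% in the other 7. SA 4 had the highest value of the 8 for 5 of the 10 genes and Ctrl 4 the lowest for 6 of 10. How often this held over all genes tested was not counted. For the 10 genes, results that rest on these 2 libraries are therefore given with and without them. Values of the companion lists, the cell type markers and other named genes are given with all 8 libraries only, and may also rest on these 2. Hepatocyte markers were abundant in every library, with 9 of the 10 listed present in the table and a summed level of 69278 to 90257 CPM (counts scaled to a library of 1000000, with TMM factors) in SA livers and 74646 to 99863 CPM in Ctrl livers. Counts of 9 genes of the companion lists, Txnip and Glo1 among them, were 0 in all 8 libraries. The FPKM table deposited by the authors lists Txnip at 29.4 to 68.5 FPKM and Glo1 at 56.5 to 77.4 FPKM, so such a 0 does not show that a gene is silent.

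The question addressed is whether the mRNA of these genes differed between SA and Ctrl livers. None of the 10 passed an adjusted p of 0.05 in the quasi-likelihood F test of edgeR (Benjamini-Hochberg over all genes tested), nor in DESeq2, nor in limma on the FPKM values. The background in that comparison was 0.0162% of genes called by edgeR (2 of 12358, 1 higher and 1 lower) and 0.421% by DESeq2 (62 of 14724). At an unadjusted p under 0.05 edgeR gave 1 of the 10 genes, Aox1, against 6.21% of all genes. For 0 of the 10 were the groups fully separated, against 3.12% of all genes. The log2 fold change, SA over Ctrl, was above 0 for 8 of the 10 genes, against 48.7% of all genes, and its median was 0.21, against -0.0073 over all genes. Without SA 4 and Ctrl 4 that median was -0.068, and 4 of the 10 genes were above 0.

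**Figure D1:**
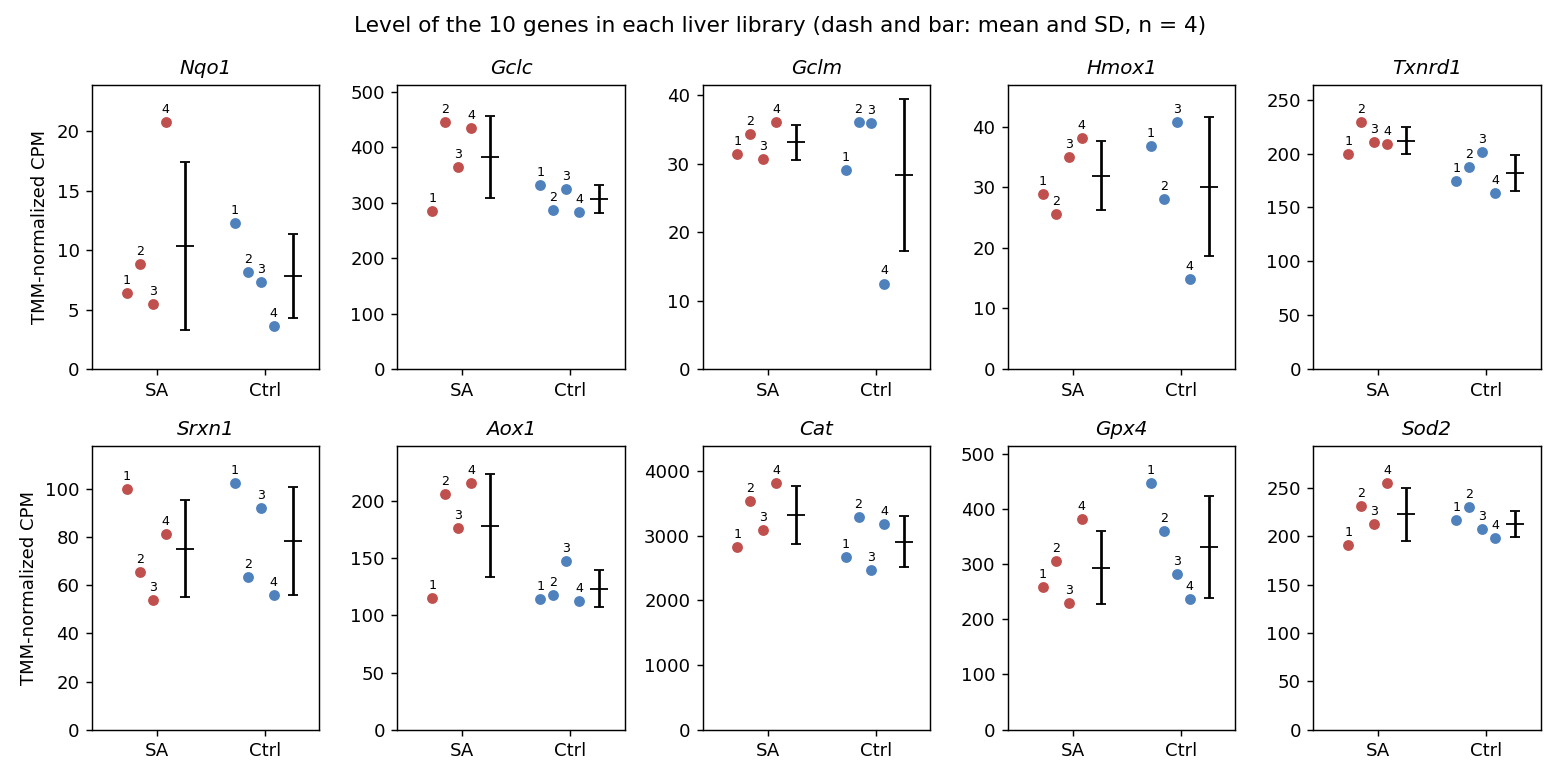
TMM-normalized CPM (vertical axis, from 0) of the 10 genes in each library, SA on the left and Ctrl on the right of each panel, with points numbered by replicate and the mean and SD of 4 libraries beside them. In all 10 panels the groups share part of their range, and SA 4 and Ctrl 4 lie at the ends of several panels.

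Among the enzymes that handle quinones and aldehydes, Aox1 had the largest log2 fold change of the 10 genes. Aox1, a molybdenum-containing aldehyde oxidase, had 115, 206, 176 and 216 CPM in SA 1 to SA 4, against 115, 118, 147 and 113 CPM in Ctrl 1 to Ctrl 4. SA 2, SA 3 and SA 4 lay above every Ctrl library, and SA 1 lay among the Ctrl livers. The means were 179 ± 45.4 CPM in SA livers and 123 ± 16.3 CPM in Ctrl livers (SD, n = 4 each), a log2 fold change of 0.54 ± 0.19 (SE) that did not pass the test (edgeR, adjusted p = 0.621). The fold was 1.45 with a 95% interval of 1.09 to 1.93. Without SA 4 and Ctrl 4 the log2 fold change of Aox1 was 0.38.

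Nqo1, the NAD(P)H quinone reductase and the usual indicator gene of NRF2 activity, had the fewest counts of the 10. Its levels were 6.37, 8.82, 5.46 and 20.8 CPM in SA 1 to SA 4, against 12.3, 8.13, 7.30 and 3.59 CPM in Ctrl 1 to Ctrl 4. The highest and the lowest value of all 8 belonged to SA 4 and Ctrl 4, and the remaining SA livers did not exceed Ctrl 1. Mean levels were 10.4 ± 7.10 CPM in SA livers and 7.83 ± 3.57 CPM in Ctrl livers (SD, n = 4 each), and the log2 fold change, 0.42 ± 0.43 (SE), did not pass (adjusted p = 0.996 by edgeR). The direction turned without SA 4 (-0.19) and without both SA 4 and Ctrl 4 (-0.43). Counting error was small beside this spread. The 575 counts of SA 4 gave an exact Poisson interval of 19.1 to 22.6 CPM and the 50 counts of Ctrl 4 one of 2.66 to 4.73 CPM, which cover counting error only.

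Gclc and Gclm encode the subunits of glutamate-cysteine ligase, which makes the first and limiting bond of glutathione. Gclc, the catalytic subunit, had 284, 446, 365 and 435 CPM in SA 1 to SA 4, against 332, 287.2, 325 and 284 CPM in Ctrl 1 to Ctrl 4. As for Aox1, the highest 3 values were those of SA 2, SA 4 and SA 3, while SA 1 lay among the Ctrl livers. Gclc averaged 383 ± 74.6 CPM in SA livers and 307 ± 25 CPM in Ctrl livers (SD, n = 4 each). The log2 fold change was 0.32 ± 0.16 (SE) and did not pass the test (edgeR, adjusted p = 0.870). Leaving out SA 4 and Ctrl 4 gave 0.20.

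Gclm, the modifier subunit that raises the efficiency of the catalytic one, had 31.4, 34.4, 30.6 and 36.1 CPM in SA livers, against 29.1, 36.1, 35.9 and 12.5 CPM in Ctrl livers. Ctrl 4 was far below the other 7 libraries, whose ranges overlapped. Gclm averaged 33.1 ± 2.57 CPM in SA livers and 28.4 ± 11.1 CPM in Ctrl livers (SD, n = 4 each). With all libraries the log2 fold change came to 0.22 ± 0.26 (SE, adjusted p = 0.996 by edgeR), and without Ctrl 4 to -0.030. The count of Gclm may be affected by overlapping genes, and their part was not tested. In the GENCODE vM21 annotation it overlaps the processed pseudogene Gm6061 on its own strand and Gm17494 on the other. Neither is among the genes counted, and the library kit is not described as keeping strand.

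Txnrd1 and Srxn1 belong to the thioredoxin branch. Txnrd1, the cytosolic selenoenzyme that reduces thioredoxin with NADPH, had 199, 229, 211 and 209 CPM in SA 1 to SA 4, against 175, 188, 202 and 164 CPM in Ctrl 1 to Ctrl 4. A single crossing, Ctrl 3 above SA 1, kept the groups from being apart. Txnrd1 averaged 212 ± 12.6 CPM in SA livers and 182 ± 16.4 CPM in Ctrl livers (SD, n = 4 each), a log2 fold change of 0.22 ± 0.13 (SE) that did not pass the test (edgeR, adjusted p = 0.939). The fold was 1.17 with a 95% interval of 0.960 to 1.41, and the log2 value was 0.17 without SA 4 and Ctrl 4. Its reads may include those of overlapping genes: Eid3, which had 0 counts, and the opposite-strand Gm38560 and Gm47073, which are not among the genes counted.

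Srxn1, the sulfiredoxin that repairs overoxidized peroxiredoxins, had 100.2, 65.5, 54.0 and 81.4 CPM in SA livers, against 103, 63.4, 92.1 and 55.9 CPM in Ctrl livers. Both groups spanned nearly the same range. The means were 75.3 ± 20.1 CPM in SA livers and 78.5 ± 22.4 CPM in Ctrl livers (SD, n = 4 each), giving -0.061 ± 0.23 (SE) as log2 fold change (adjusted p = 0.996 by edgeR). Its sign turned when any of SA 2, SA 3, Ctrl 1 or Ctrl 3 was left out, with values up to 0.089.

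Hmox1, the inducible heme oxygenase that breaks heme down to biliverdin, iron and carbon monoxide and is high in liver macrophages, had 28.8, 25.6, 34.99 and 38.1 CPM in SA livers, against 36.8, 28.1, 40.8 and 14.8 CPM in Ctrl livers. Ctrl 4 held the lowest value and Ctrl 3 the highest. Hmox1 averaged 31.9 ± 5.69 CPM in SA livers and 30.1 ± 11.5 CPM in Ctrl livers (SD, n = 4 each), and its log2 fold change came to 0.084 ± 0.26 (SE, adjusted p = 0.996 by edgeR). It was -0.023 without SA 4, -0.15 without Ctrl 4 and -0.25 without both. Markers of resident liver macrophages (Kupffer cells), 12 of 12 detected, also summed lowest in Ctrl 4, at 427 CPM. Their sums ran from 711 to 1009 CPM in SA livers and from 427 to 856 CPM in Ctrl livers, and their part in the Hmox1 values was not tested. In bulk tissue, fewer cells of a type and less RNA per cell cannot be told apart.

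Among the enzymes that remove peroxide and superoxide, none passed the test. Cat, the peroxisomal catalase, had 2819, 3539, 3079 and 3817 CPM in SA 1 to SA 4, against 2674, 3286, 2468 and 3184 CPM in Ctrl 1 to Ctrl 4. SA 2 and SA 4 were the only libraries above all Ctrl livers. Cat averaged 3314 ± 449 CPM in SA livers and 2903 ± 395 CPM in Ctrl livers (SD, n = 4 each), which on the log2 scale differed by 0.19 ± 0.17 (SE, adjusted p = 0.996 by edgeR). The difference of Cat was 0.11 without SA 4, 0.12 without Ctrl 3 and 0.15 without SA 4 and Ctrl 4.

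Gpx4, the selenoenzyme that reduces lipid hydroperoxides in membranes and restrains ferroptosis, had 258, 305, 229.7 and 382 CPM in SA livers, against 447, 359, 282 and 237 CPM in Ctrl livers. It had the lowest log2 fold change of the 10, -0.17 ± 0.21 (SE, adjusted p = 0.996 by edgeR), from means of 294 ± 66.7 CPM in SA livers and 331 ± 92.3 CPM in Ctrl livers (SD, n = 4 each). It was -0.47 without SA 4 and Ctrl 4, -0.33 without SA 4, -0.31 without Ctrl 4, -0.071 without SA 3 and -0.0020 without Ctrl 1. A transcribed processed copy, Gpx4-ps2, had counts of 16.99% to 21.5% of those of Gpx4 in every library, so reads may be split between the genes.

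Sod2, the manganese superoxide dismutase of mitochondria, had 191, 231, 213 and 255 CPM in SA livers, against 217, 229.8, 207 and 198 CPM in Ctrl livers. SA 1 held the lowest and SA 4 the highest of the 8 values. The means were 222 ± 27.3 CPM in SA livers and 213 ± 13.6 CPM in Ctrl livers (SD, n = 4 each). On the log2 scale the difference was 0.063 ± 0.14 (SE, adjusted p = 0.996 by edgeR), with a 95% interval of the fold of 0.851 to 1.28. It became -0.018 without SA 4 and -0.055 without SA 4 and Ctrl 4.

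**Figure D2:**
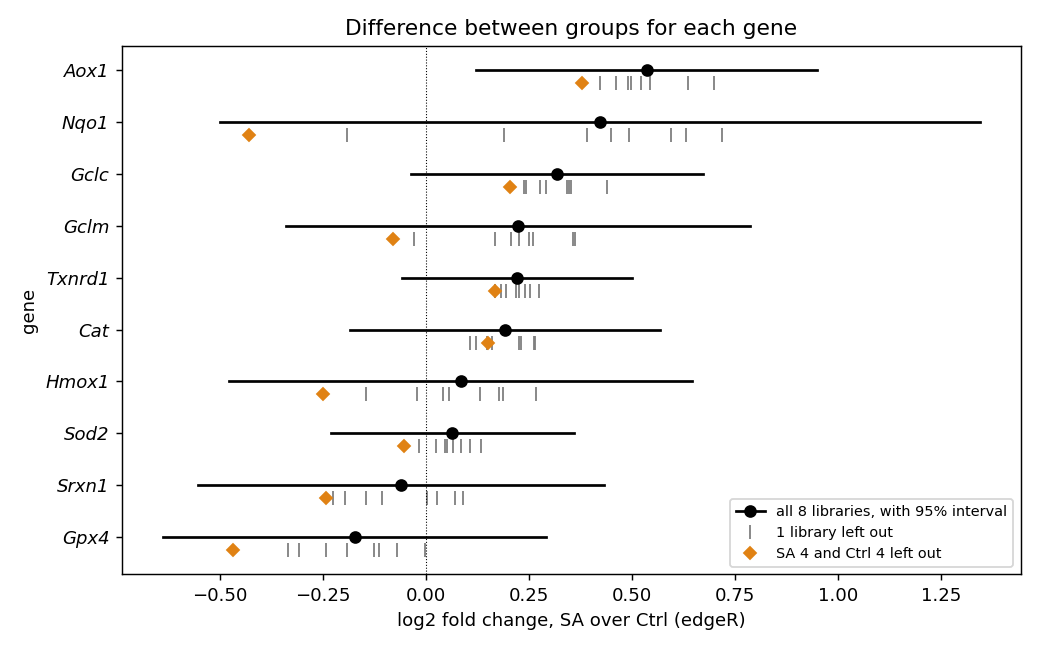
Log2 fold change, SA over Ctrl (horizontal axis), of each gene with all 8 libraries (points, with 95% intervals), with each library left out in turn (grey ticks) and with SA 4 and Ctrl 4 left out together (orange diamonds). The interval of Aox1 alone stays above 0, and the diamonds of Nqo1, Gclm, Hmox1 and Sod2 lie on the other side of 0 from their points.

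Seen by library, the set was highest in SA 4 and lowest in Ctrl 4. The median deviation of the 10 genes from their means over 8 libraries, on the log2(CPM + 1) scale, was -0.16, 0.15, 0.026 and 0.32 in SA 1 to SA 4, against -0.0090, -0.028, -0.023 and -0.36 in Ctrl 1 to Ctrl 4. SA 4 exceeded all Ctrl livers for 7 genes, SA 2 for 5 (Gclc, Txnrd1, Aox1, Cat and Sod2) and SA 3 for 3 (Gclc, Txnrd1 and Aox1). SA 1 exceeded them for none and lay within their range for 9. Ctrl 4 lay below all SA livers for 6 genes, Nqo1, Gclc, Gclm, Hmox1, Txnrd1 and Aox1. Cat did not share this, at 3184 CPM in Ctrl 4. The depth of SA 4 and the mitochondrial share of Ctrl 4 went along with these values, and their part was not tested. How often each library lay outside the other group was not counted over all genes. These counts can therefore not be called particular to the 10 genes. Across genes, Ctrl 4 differed from the other Ctrl livers with a chi-square per degree of freedom of 101 to 106. Pairs among Ctrl 1, Ctrl 2 and Ctrl 3 had 35.5 to 47.3.

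**Figure D3:**
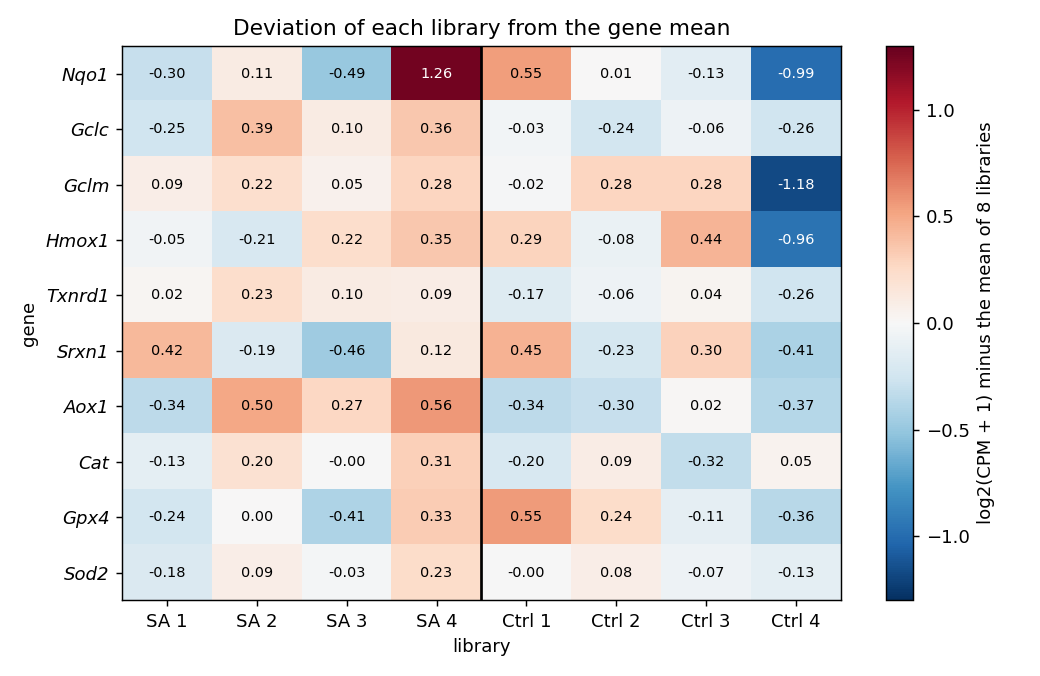
Deviation of each library from the gene's mean over 8 libraries on the log2(CPM + 1) scale, by gene (rows) and library (columns, SA left of the line, Ctrl right), red above and blue below the mean. The strongest single cells are Nqo1 in SA 4 (1.26) and Gclm in Ctrl 4 (-1.18).

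Across the 8 libraries, 0 of the 45 pairs of these genes varied together past an adjusted p of 0.05 (Pearson r of log2(CPM + 1), exact permutation test over pairings, two-sided, Benjamini-Hochberg over 45 pairs). Gclc and Aox1 came closest, with r = 0.94 (exact p = 0.00196, adjusted p = 0.0882) and Spearman's rho = 0.83 (exact p = 0.0154, adjusted p = 0.196). Without SA 2 and SA 4, the libraries farthest from the median of Gclc, r was 0.81, and after subtracting group means it was 0.91. Nqo1 and Gpx4 had r = 0.83 (exact permutation p = 0.00801, adjusted p = 0.161) and rho = 0.93 (exact permutation p = 0.00223, adjusted p = 0.1004). Without SA 4 and Ctrl 4, r of Nqo1 and Gpx4 was 0.95. After subtracting group means, r of this pair was 0.94, the single pair past the threshold in that setting (permutation, adjusted p = 0.0391). That p is not exact and may be too small, since values centred within each group were permuted across all 8 libraries. Gclm and Hmox1 (r = 0.83, exact permutation p = 0.0648, adjusted p = 0.292) rested on Ctrl 4, with r = 0.18 without Ctrl 4 and Ctrl 1. The subunit genes Gclc and Gclm had r = 0.43 (exact permutation p = 0.339, adjusted p = 0.546).

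Over 11852 genes, the patterns most like that of Nqo1 across the 8 libraries were those of Acadm (r = 0.97), Tapbp (r = 0.96) and Dhrs4 (r = 0.95). Acadm, the medium-chain acyl-CoA dehydrogenase of mitochondrial fat oxidation, had 428, 481, 424 and 676 CPM in SA 1 to SA 4, against 561, 538, 474 and 378 CPM in Ctrl 1 to Ctrl 4. For Hmox1 they were Prkab1 (r = 0.97), E2f4 (r = 0.96) and Il10ra (r = 0.96). These are the highest of many correlations over 8 libraries, given as a description. Acadm, Tapbp and Dhrs4 were highest in SA 4 and lowest in Ctrl 4, as Nqo1 was. Prkab1, E2f4 and Il10ra were lowest in Ctrl 4, as Hmox1 was. The correlations were not computed without these libraries and may rest on them.

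Levels between genes can be compared only per length, in the deposited FPKM. The order by mean of 8 libraries was Cat (1581 FPKM), Gpx4 (451), Gclc (133), Gclm (74.0), Sod2 (52.0), Aox1 (44.0), Srxn1 (36.9), Hmox1 (26.5), Txnrd1 (17.3) and Nqo1 (7.78 FPKM). The ranges of Cat, Gpx4, Gclc and Gclm did not overlap between neighbours, and those of all later neighbours did. For 8 of the genes CPM over FPKM moved together from library to library, its highest value being 1.34 to 1.46 times its lowest. That ratio varied 4.04 times for Gclm and 4.72 times for Txnrd1. It ran from 0.162 to 0.655 for Gclm and from 7.30 to 34.4 for Txnrd1, against 0.579 to 4.88 over the other 8 genes. The places of Gclm and Txnrd1 in the order are therefore uncertain. In Ctrl 4, where Gclm had its lowest count level (12.5 CPM), its FPKM of 77.1 was above its 8-library mean. Txnrd1 had 14.3, 31.4, 22.1 and 6.08 FPKM in SA 1 to SA 4, against 23.9, 16.7, 7.75 and 16.1 FPKM in Ctrl 1 to Ctrl 4, and the groups overlapped throughout. On the log2(FPKM + 1) scale, limma gave Txnrd1 a difference of 0.076 ± 0.50 (SE) and Gclm one of 0.17 ± 0.18 (SE; limma, adjusted p = 0.999 for both). The low Gclm of Ctrl 4 was thus seen in the counts and not in the FPKM.

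**Figure D4:**
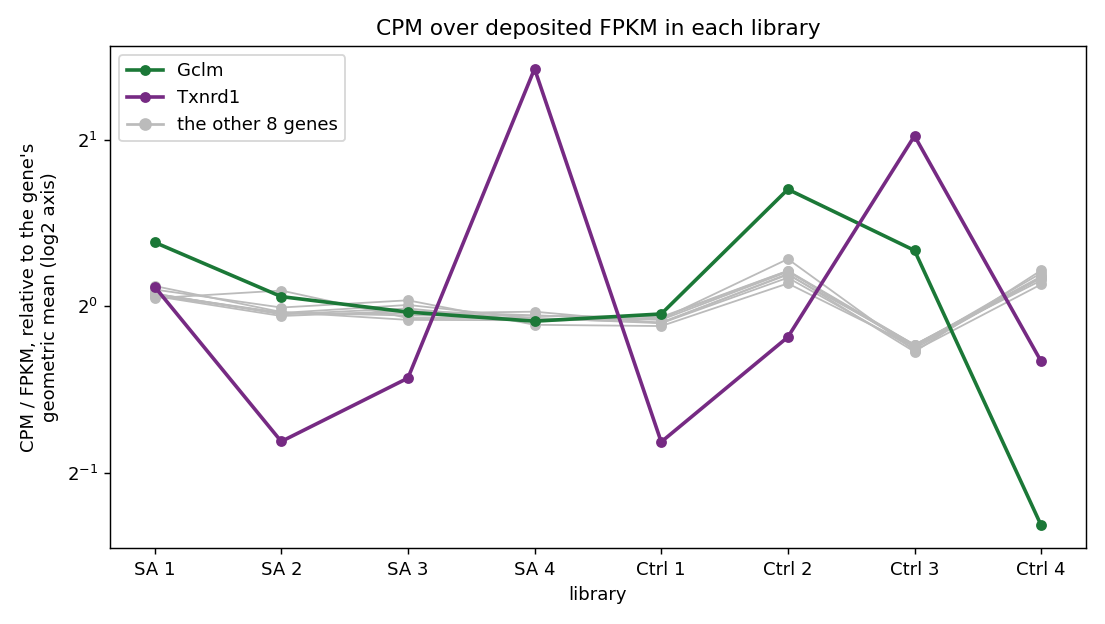
Ratio of TMM-normalized CPM to the authors' FPKM in each library (SA left, Ctrl right), divided by the gene's geometric mean over libraries, on a log2 axis. The lines of 8 genes run together, whereas Txnrd1 is high in SA 4 and Ctrl 3 and Gclm is low in Ctrl 4.

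The regulators of the pathway gave 0 calls among 12 tested in edgeR and in DESeq2. At an unadjusted p under 0.05 edgeR gave 1 of the 12 (Bach2), against 6.21% of all genes. Of their log2 fold changes 5 were above 0, against 48.7% of all genes, and 7 below, with a median of -0.10. Nfe2l2, which encodes NRF2, averaged 69.2 ± 12.0 CPM in SA livers and 86.7 ± 10.97 CPM in Ctrl livers (SD, n = 4 each), a log2 fold change of -0.32 ± 0.16 (SE) that did not pass the test (edgeR, adjusted p = 0.833). Bach2, a competing repressor, had the lowest value, -0.95 ± 0.31 (SE; edgeR, adjusted p = 0.562), with 6.69 to 12.7 CPM in SA livers and 8.90 to 30.2 CPM in Ctrl livers. Log2 fold changes were 0.10 for Keap1, 0.097 for Bach1, -0.18 for Cul3 and 0.058 for Rbx1, the last 2 being parts of the ligase. The small MAF partners had 0.13 (Mafg), -0.28 (Mafk) and -0.37 (Maff). The relative Nfe2l1 had 0.29, the adaptor Sqstm1 had -0.17 and Tfe3 had -0.036.

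Other genes known as NRF2 targets gave 0 edgeR calls among 17 tested of 18 listed. At an unadjusted p under 0.05 edgeR gave 3 of the 17 (Abcc4, Cbr1 and Cbr3), against 6.21% of all genes. Log2 fold changes were above 0 for 12, against 48.7% of all genes, and below for 5, with a median of 0.18. Those with the highest mean CPM were Abcc2 (0.27), a bile-canaliculus conjugate pump, Ephx1 (0.44), the microsomal epoxide hydrolase, and Entpd5 (0.18). Abcc4, an efflux pump of the basolateral membrane, was the single gene of the 10 companion lists that DESeq2 called. It had 6.51, 25.3, 10.7 and 23.7 CPM in SA 1 to SA 4, against 5.66, 4.89, 6.09 and 6.17 CPM in Ctrl 1 to Ctrl 4. All SA values lay above all Ctrl values. On the log2 scale the difference was 1.54 ± 0.36 (SE), with an adjusted p of 0.342 by edgeR and 0.00896 by DESeq2. The carbonyl reductase Cbr3, singled out after its values were seen, had 3.62, 15.3, 2.63 and 21.5 CPM in SA livers, against 4.44, 1.103, 3.44 and 1.65 CPM in Ctrl livers (log2 fold change 2.03 ± 0.62 SE, adjusted p = 0.518 by edgeR). SA 2 and SA 4 were the high libraries for both genes, as for Aox1 and Gclc. Abcc4 and Cbr3 were named after their values were seen. How often SA 2 and SA 4 were highest over all genes was not counted, so this cannot be called particular to these genes. Slc7a11, the cystine importer, was the listed target too low for the edgeR test, at 0.134 to 0.253 CPM in SA livers and 0.414 to 1.91 CPM in Ctrl livers. The groups of Slc7a11 did not overlap, and DESeq2 gave a log2 fold change of -2.43 that did not pass (DESeq2, adjusted p = 0.0969).

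In the other branches of antioxidant metabolism 0 genes passed the test in either direction, in edgeR or DESeq2. At an unadjusted p under 0.05 edgeR gave 3 genes in all these branches, where the share over all genes was 6.21%. They were Ggct and Chac1, of 9 tested for glutathione synthesis and reduction, and Sod3, of 6 tested dismutases and partners. Glutathione synthesis and reduction had 5 of 9 tested genes above 0 (median log2 fold change 0.031), against 48.7% of all genes. Among them were 0.22 for Hagh, -0.043 for Glrx5 and 0.10 for the glutathione reductase gene Gsr. Gss, Ggt1 and Glo1 of this list were not tested, Gss being at 0 to 0.181 CPM in SA livers and 0 to 0.215 CPM in Ctrl livers. Ggct, which releases pyroglutamate from glutamyl peptides, lay lower in every SA liver (4.15 to 5.77 CPM) than in every Ctrl liver (6.82 to 9.79 CPM), at -0.73 ± 0.21 (SE; edgeR, adjusted p = 0.480), and was named after its values were seen. The other glutathione peroxidases had 0 of 3 above 0 (median -0.18), and Gpx1, the abundant cytosolic form, had 2104 ± 418 CPM in SA livers and 2229 ± 242 CPM in Ctrl livers (SD, n = 4 each; log2 fold change -0.083). Thioredoxins and peroxiredoxins had 6 of 14 above 0 (median -0.042), with -0.093 for Prdx1, -0.11 for Prdx6 and 0.10 for Msrb1.

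The counts above 0 in the following lists stand beside a share of 48.7% over all genes. NADPH-producing enzymes had 1 of 8 tested above 0 (median -0.068), with 0.055 for Idh1, -0.012 for Me1 and -0.089 for Taldo1. G6pdx was also listed and could not be tested, with 0 counts in every library and no FPKM. Superoxide dismutases and their partners had 3 of 6 above 0 (median -0.011), with -0.052 for Sod1, 0.030 for its copper chaperone Ccs and 0.20 for the zinc exporter Slc30a1. Heme and iron genes had 8 of 11 above 0 (median 0.15), with 0.16 for the heme carrier Hpx, 0.16 for the hemoglobin carrier Hp and -0.082 for the ferritin chain Fth1. The relatives of Aox1 among molybdenum enzymes and their cofactor genes had 6 of 6 tested above 0 (median 0.19), against 48.7% of all genes. Among them were 0.31 for Aox3, 0.26 for Xdh and 0.0083 for Suox. At an unadjusted p under 0.05 edgeR gave 0 of these 6. Peroxisome genes, the neighbours of catalase, had 8 of 9 above 0 (median 0.051), with -0.22 for Uox and 0.033 for Ephx2.

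**Figure D5:**
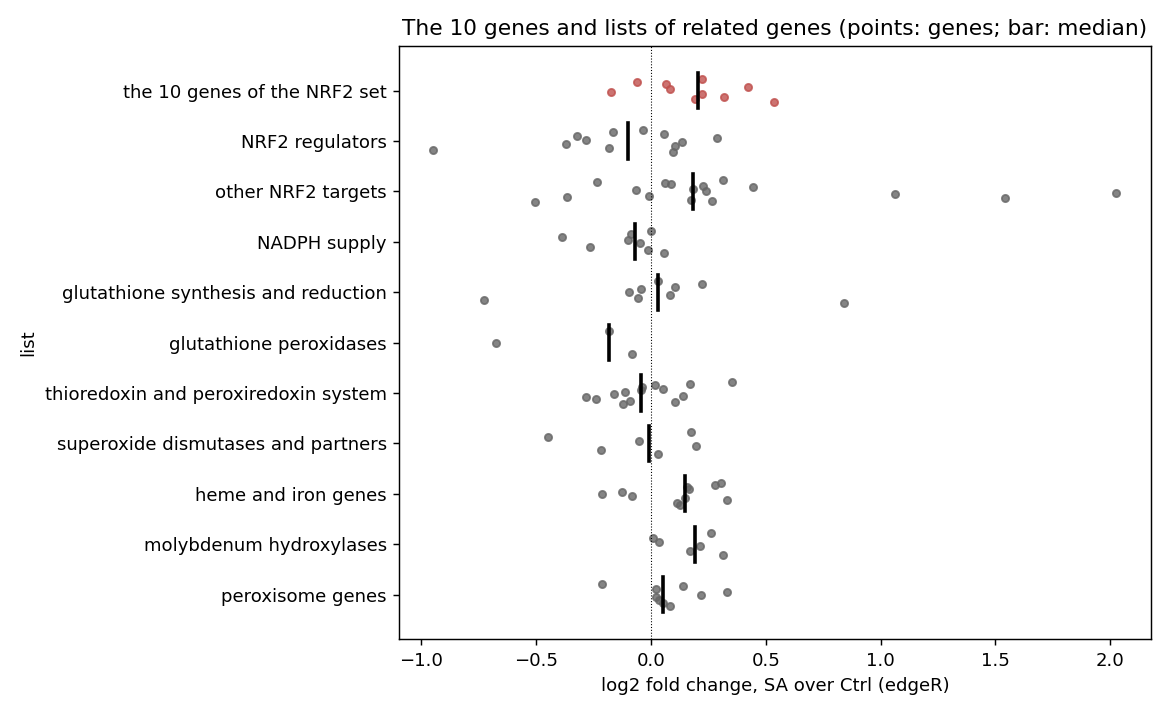
Log2 fold change, SA over Ctrl (horizontal axis), of every tested gene (points) in the 10-gene set and the 10 companion lists (rows), with the median of each list as a bar. The medians lie between -0.18 (glutathione peroxidases) and 0.21 (the 10 genes), and the points farthest to the right are Cbr3, Abcc4 and Cbr1 among the other NRF2 targets.

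Markers of other liver cell types gave 0 edgeR calls, and DESeq2 called 2 of the recruited macrophage markers, Cx3cr1 and Gpnmb. At an unadjusted p under 0.05 edgeR gave 1 of 12 tested Kupffer markers and 7 of 11 recruited macrophage markers. It gave 4 of 8 stellate, 3 of 6 bile duct and 1 of 9 endothelial markers, against 6.21% of all genes. Spp1 is counted in both the recruited macrophage and the bile duct list. Kupffer cell markers had 12 of 12 log2 fold changes above 0 (median 0.27), against 48.7% of all genes. Recruited macrophage markers had 0 of 11 above 0 (median -0.89), summing to 167 to 197 CPM in SA livers and 187 to 507 CPM in Ctrl livers. Stellate cell markers had 0 of 8 above 0 (median -0.56), with sums of 302 to 359 CPM in SA livers and 365 to 857 CPM in Ctrl livers. Bile duct markers, which share Spp1 with the recruited macrophages, summed to 38.1 to 67.1 CPM in SA livers and 35.4 to 135 CPM in Ctrl livers. Endothelial sums were 324 to 518 CPM in SA livers and 416 to 503.5 CPM in Ctrl livers, and erythroid sums 44.3 to 206 CPM in SA livers and 27.1 to 153 CPM in Ctrl livers. Itgam, Lrat and Alas2 were among the markers at 0 counts in every library. The part of these cells in the values of the 10 genes was not tested.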

How the data were processed

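Messenger RNA was measured in 8 mouse liver libraries, grouped by title into 4 SA and 4 Ctrl. The authors deposited raw counts per gene, with no normalization, and a table of FPKM for 9265 symbols, of which 8638 are in the count table. The submitters' processing notes name HISAT2, StringTie 2.2.1 and FastQC 0.19.7 as tools. Builds GRCm39 and mm10 are named without a role, so no gene coordinates are printed beyond the RefSeq windows. The counting program was not given in the sources used here.

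Counts were tested with edgeR 4.0.16 in R 4.3.3 (TMM, filterByExpr, quasi-likelihood F test, Benjamini-Hochberg over 12358 genes, threshold 0.05), after checks on simulated data. Alternatives used DESeq2 1.42.0, RLE factors, other filters, limma 3.58.1 on log2(FPKM + 1) or log2(FPKM + 0.1), a replicate block, and left-out libraries. CPM are TMM-normalized and standard errors come from the fold change and F statistic. The genes and lists were chosen with earlier results of these data known. Named by rule beside the 10 genes are all regulators and the 3 tested genes of highest mean CPM in each companion list, apart from values that are not reported here. Abcc4, Cbr1, Cbr3, Slc7a11, Ggct, Chac1, Sod3, Cx3cr1 and Gpnmb were named after their values were seen. Intervals on counts cover counting error only. The libraries differed pairwise by far more than sampling noise (lowest chi-square per degree of freedom 24.6).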

Additional observations from a re-analysis of the deposited data

Results flagged for a closer look

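Aox1 in Ctrl 3, at 147.5 CPM, lay far from the other Ctrl livers, which had 112.6 to 118.2 CPM. The gap to the nearest was 0.838 of the range of the group, above the 95% critical value of Dixon for 4 libraries. It was 1 of 20 groups checked (10 genes in SA and in Ctrl livers), and chance gives about 1 in 20. The log2 fold change of Aox1, SA over Ctrl, was 0.63 without Ctrl 3 (edgeR, adjusted p = 0.481, within a range of 0.203 to 0.9996 over 17 alternatives).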

How the results depend on the processing

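The 10 genes gave 0 calls under all 17 alternatives. Aox1, Gclc, Cat and Txnrd1 stayed above 0 and Gpx4 below 0 in every one of them, Gpx4 only just so without Ctrl 1 (-0.0020). With libraries left out, log2 fold changes, SA over Ctrl, ran from -0.43 to 0.72 for Nqo1, -0.081 to 0.36 for Gclm, -0.25 to 0.27 for Hmox1, -0.055 to 0.13 for Sod2 and -0.24 to 0.089 for Srxn1, and their median from -0.068 to 0.27. The lowest values of Nqo1, Gclm, Hmox1 and Sod2 and of the median were those without SA 4 and Ctrl 4, an alternative chosen after seeing the data. Over all genes, 2 were called by edgeR, 62 by DESeq2 (23 higher, 39 lower), 8 with no filter on low counts, 3 by limma on FPKM, 6 with the replicate block and 0 to 19 with a library left out. The 19 came without SA 1, and the count was 0 without Ctrl 4 and without SA 4 and Ctrl 4, and 1 without SA 2, SA 3, SA 4 or Ctrl 1. The cause was not tested. The block pairs libraries by replicate number, for which same-numbered libraries gave correlations of -0.012, -0.011, 0.26 and -0.25, and no library went best with its own number. Pairs of the 10 genes past the threshold numbered 1 after subtracting group means, 6 on log2(FPKM + 1), and 0 with libraries left out. The permutation p after subtracting group means is not exact. Depth limits mainly Nqo1, where counting error reached 14.1% of the count in Ctrl 4.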

Other observations

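On log2(FPKM + 1), 6 of the 45 pairs of the 10 genes passed an adjusted p of 0.05 (exact permutation test over pairings, Benjamini-Hochberg). They were Gclc with Aox1 (r = 0.95, exact permutation, adjusted p = 0.00558), Gclc with Sod2 (r = 0.93), Aox1 with Sod2 (r = 0.91), Nqo1 with Gpx4 (r = 0.86), Aox1 with Cat (r = 0.86) and Nqo1 with Sod2 (r = 0.85). The values share each library's FPKM scaling. The 2 deposited tables also differ in which genes have a value, since 495 of the 8638 genes in both had 0 counts in all 8 libraries and an FPKM above 0. In the 10-gene set this did not occur. Among the companion genes it occurred for Txnip, Glo1, Lrat (6.06 to 11.4 FPKM) and Gpx8 (0.532 to 2.09 FPKM).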
